A study of Mus musculus with 32 samples.

Results

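Pml, Sp100, Sp110, Daxx, Nmi and Ifi35 are 6 mouse genes whose products form or act in PML bodies or make up the Nmi-Ifi35 pair. They were picked by symbol, with earlier results of these data known. They were followed through ribosome footprints and total RNA of neural stem cells (NSCs) exposed to interferon-β (IFN-β). All 6 symbols matched 1 Ensembl identifier each, among 23035 genes in the footprint tables and 39017 in the total RNA tables. The NSCs came from the ventricular-subventricular zone of C57BL/6 mice aged 8 to 12 weeks, all marked wt in the count tables, and were grown ex vivo, where they are away from the cells of their niche. At 48 h after seeding they received vehicle or recombinant IFN-β for 2 h or 14 h. The sources give the long exposure as 14 h in most places and as 16 h in some. Cells of all 4 groups also received cycloheximide, which holds ribosomes on the mRNA, for 5 min before lysis. Each group held 4 cultures, and every lysate gave a footprint and a total RNA library, 32 libraries in all. Counts below follow the order of the replicates, which carry the numbers 2, 3, 5 and 6 in the short exposure and 1 to 4 in the long one. The sources call them biological replicates without saying how many mice gave each culture.

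PML bodies are nuclear structures built on the PML protein, which is modified by the small protein SUMO and gathers partners that carry SUMO or bind it. Sp100 is a resident of these bodies, Sp110 is a related chromatin-binding protein, and Daxx brings the histone variant H3.3 to DNA together with Atrx. Nmi and Ifi35 are cytoplasmic proteins that share a domain type, bind each other and bind signalling proteins such as Stat factors. Type I interferon is known to raise many of these genes through transcription factors that bind interferon-stimulated response elements near their starts.

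After 14 h of IFN-β, footprints of every member, scaled for library size, were above those of all vehicle libraries. This held for 23.4% of all genes tested, among which Sp110 was not, for its low counts. The size of the change differed widely between the members. Sp100 went from no footprint in any of the 8 vehicle libraries to 185 or more in each treated library. Ifi35 rose by 8.41 on the log2 scale, Nmi by 3.76, Pml by 2.46 and Daxx by 1.60. At 2 h Ifi35, Nmi, Pml and Daxx were already higher by the test, as were 5.25% of all genes tested. Sp100 and Sp110 had 0 or 1 footprint per library at that time. In total RNA Nmi was the only member whose change passed the test, at 14 h, where 3.47% of all genes tested passed as higher. It was among the 3 members that reached the count filter there, which Nmi did through its treated libraries alone.

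The starts of the genes are shown for the sequence that Sp100, Sp110 and Ifi35 have in common. RefSeq promoter windows of GRCm38.p6, running from 250 bases before to 50 bases after a transcription start, were available for all 6 genes. An interferon-stimulated response element written as GAAANNGAAA occurs on either strand in 3.44% of the 32851 windows and in none of the members' windows. The Stat-binding element TTCNNNGAA occurs in 8.30% of windows and, among the members, in that of Ifi35 only, 7 bases after the start. The shorter string AAANGAAAG, chosen after the members' windows had been read, occurs on either strand in 2.93% of windows. Counted by gene, 3.38% of 27025 symbols have it in a window. It was found in windows of Sp100, Sp110 and Ifi35 and not in those of Pml, Daxx or Nmi. The Sp110 window of another start (85603842 to 85604141) held no match. Each match is printed below in capitals, 5′ to 3′ on the strand of its gene, with 10 bases to each side.
Sp100, chr1:85649930-85649958, plus strand, 48 bases before a start: tagagaattaCTTTCGTTTttcttttccc
Sp110, chr1:85598784-85598812, minus strand, 8 bases after a start: gctgagatcaCTTTCATTTttcttttctt
Ifi35, chr11:101448416-101448444, plus strand, 14 bases after the start: gaattcacagAAATGAAAGtggaagtgag
In Sp100 and Sp110 the string lies on the reverse strand and is followed by a run of T and C. The string in Ifi35 overlaps the Stat-binding element by 2 bases. These are matches of letters in one window per start and say nothing of what binds there.

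The footprint libraries held 2956297 to 10505108 counts and the total RNA libraries 1370008 to 7877753. Total RNA was thin over the genes that footprints could test. Their median of the mean count per library was 16 in total RNA against 240.4 in footprints at 2 h, and 5.88 against 253.0 at 14 h. The 8 NSC markers checked (among them Nes, Sox2 and Slc1a3) together took 10560 to 17944 footprint CPM (counts scaled for library size) in every library. The 7 microglial markers took 11.9 to 45.4 CPM, with Cx3cr1 and Aif1 at 0 throughout, and the 4 endothelial markers 3.21 to 9.37 CPM with vehicle and 6.94 to 23.9 CPM with IFN-β at 2 h, and 4.39 to 6.37 CPM at 14 h. The 4 oligodendrocyte lineage markers took 633 to 822 CPM with vehicle and 338 to 392 CPM with IFN-β at 2 h, and 773 to 878 CPM and 845 to 1018 CPM at 14 h. The 3 neuroblast markers took 44.3 to 75.5 CPM with vehicle and 49.7 to 110.5 CPM with IFN-β over both times. Foxj1, the ependymal marker, took 22.4 to 41.5 CPM with vehicle and 15.2 to 35.1 CPM with IFN-β at 2 h, and 16.7 to 23.5 CPM and 41.8 to 56.7 CPM at 14 h. The part of these shifts in the members' values was not tested. In bulk libraries, fewer cells that express a gene and less of its RNA per cell cannot be told apart.

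The question at 2 h was which of the genes gained footprints soon after exposure. A gene entered edgeR's quasi-likelihood test if 4 or more libraries held 10 or more of its counts, and it was called at an adjusted p under 0.05, after Benjamini-Hochberg adjustment over all genes tested. Pml, Daxx, Nmi and Ifi35 entered and all 4 were called higher. In CPM all their treated libraries were above all vehicle libraries, which held for 7.68% of all genes tested. Among all 12104 genes tested, 5.25% were called higher and 2.01% lower, and with the replicate number as a block 15.9% were called higher. The median log2 fold change of the 4 was 1.57, and that of all genes was -0.02.

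Pml, the scaffold of the bodies (chromosome 9, 58218076 to 58249786, minus strand in mm10), had 345, 216, 237 and 244 footprints with vehicle at 2 h in replicates 2, 3, 5 and 6. With IFN-β it had 802, 538, 659 and 532. The lowest treated library stood above the highest vehicle library, also in CPM (88.2 to 109.9 against 30.2 to 36.7). IFN-β raised Pml by 1.57 on the log2 scale (SE 0.10, adjusted p = 1.02e-05 in edgeR). At 14 h the vehicle cultures gave 209, 325, 325 and 402 footprints in replicates 1 to 4, and the treated ones 604, 1399, 1412 and 1936. In CPM the treated libraries lay close together, at 204.9 ± 4.2 (SD, n = 4), against 37.1 ± 3.3 with vehicle. The log2 fold change reached 2.46 (SE 0.07, adjusted p = 3.97e-12 in edgeR), 0.90 above that at 2 h (SE 0.12, adjusted p = 3.92e-05 for the difference).

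Daxx, the H3.3 chaperone (chromosome 17, 33909414 to 33915590, plus strand), had 298, 236, 242 and 240 footprints with vehicle at 2 h and 714, 496, 570 and 407 with IFN-β. The groups did not overlap, and the treated libraries spread more widely (84.6 ± 14.5 CPM, SD, n = 4) than the vehicle libraries (32.4 ± 0.7 CPM). Daxx rose by 1.39 on the log2 scale (SE 0.12, adjusted p = 1.02e-04 in edgeR). At 14 h the counts were 182, 317, 237 and 355 with vehicle and 267, 737, 644 and 888 with IFN-β. The raw counts overlap at this time, with 267 in the shallowest of the footprint libraries, and in CPM the groups were apart (89.6 to 105.5 against 29.3 to 33.7). On the log2 scale it was higher by 1.60 at 14 h (SE 0.07, adjusted p = 6.17e-10). The change of Daxx at 14 h exceeded that at 2 h by 0.22 on the log2 scale (SE 0.14), which did not pass the test (adjusted p = 0.255 in edgeR).

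Nmi (chromosome 2, 51948487 to 51973494, minus strand), which binds Stat proteins and Ifi35, had 102, 77, 82 and 62 footprints with vehicle and 232, 199, 181 and 164 with IFN-β at 2 h. All treated libraries were above all vehicle libraries. Nmi rose by 1.57 on the log2 scale (SE 0.17, adjusted p = 3.81e-04 in edgeR), the value of Pml at this time. At 14 h vehicle libraries gave 57, 103, 69 and 79 footprints and treated ones 347, 881, 898 and 1094. The level went from 9.13 ± 1.35 CPM to 123.2 ± 7.8 CPM (SD, n = 4). The log2 fold change of 3.76 (SE 0.10, adjusted p = 1.76e-12) exceeded that at 2 h by 2.20 (SE 0.20, adjusted p = 1.02e-06 for the difference in edgeR).

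Ifi35, the partner of Nmi (chromosome 11, 101448407 to 101458698, plus strand), started near the detection limit. With vehicle it had 10, 8, 4 and 4 footprints at 2 h and 1, 5, 4 and 5 at 14 h. With IFN-β it had 109, 66, 60 and 46 at 2 h and 391, 1043, 1105 and 1612 at 14 h. The treated libraries were far above the vehicle libraries at both times. Ifi35 rose by 3.69 on the log2 scale at 2 h (SE 0.33, adjusted p = 1.12e-04 in edgeR). After 14 h the rise was 8.41 (SE 0.17, adjusted p = 1.61e-13 in edgeR). The difference between the times was 4.73 (SE 0.54, adjusted p = 8.42e-06). The size of the 14 h value rests on 15 vehicle footprints over 4 libraries.

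Sp100 (chromosome 1, 85649988 to 85709998, plus strand), a resident of PML bodies that carries SUMO, had no footprint in the vehicle libraries of either time. Treated libraries held 1, 1, 0 and 1 at 2 h, too few to test, and 185, 521, 612 and 789 at 14 h. Every treated library of 14 h was thus above every other library, with 78.0 ± 12.5 CPM (SD, n = 4). Against a floor of 3 counts over the 4 vehicle libraries the footprints were at least 923-fold higher, and edgeR called the gene at an adjusted p of 1.14e-09. A value for the difference between 14 h and 2 h is not given, since both vehicle groups were at 0 and the fitted one has no base. Of the 30-base stretches of the Sp100 coding sequence, 15.8% also occur in other annotated genes, above all Gm7582, Gm2619 and Gm7592 on the same chromosome. These genes had 0 to 9 counts per total RNA library and were not analysed in footprints, so reads placed on them instead of Sp100 could not be seen.

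Sp110 (chromosome 1, 85576899 to 85598817, minus strand), next to Sp100 and of the same family, gave few footprints. At 2 h the vehicle libraries held 1, 0, 0 and 0 and the treated ones 1, 1, 0 and 0. After 14 h the vehicle libraries held 0, 0, 1 and 0 and the treated ones 3, 8, 16 and 14. All 4 treated libraries of 14 h held more than any other library, but the gene fell short of the count filter. The summed counts of 41 and 1 gave a ratio of 53.9, with a counting interval of 9.14 to 2179 at 95% confidence that covers counting error only. With no filter on low counts Sp110 was called as well, so that 6 of 6 members were called higher at 14 h. In that setting 18.35% of 17376 genes were called higher. Copies of this gene lie in the same region, and 69.5% of its 30-base stretches occur in other genes, above all Gm15753, Gm16026 and C130026I21Rik. C130026I21Rik held 165 to 3482 total RNA counts and 0 to 2 footprints per library, and Gm15753 and Gm16026 held 0 to 8 total RNA counts. How the authors' mapping shared reads between Sp110 and these genes was not tested. Sp140, another gene of the family, went from 0 in all vehicle libraries to 4, 14, 9 and 12 footprints at 14 h, at least 17.1-fold higher against the same floor.

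**Figure D1:**
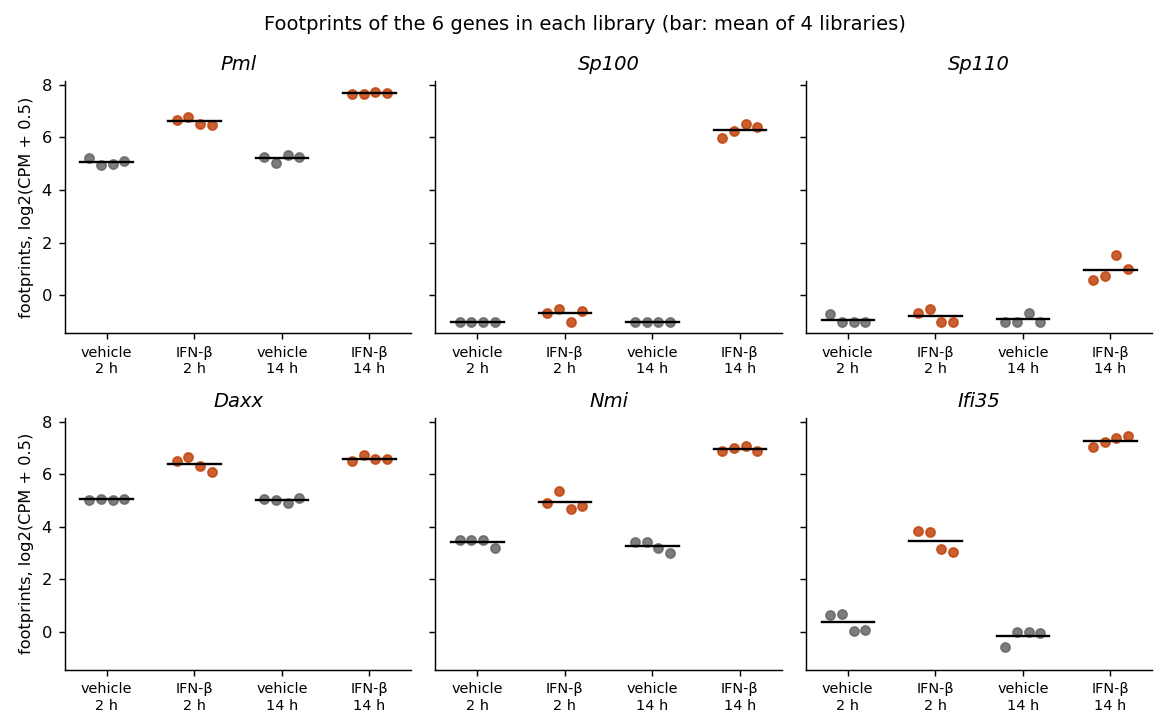
Footprints of the 6 genes in each library, as log2 of CPM plus 0.5, with 1 point per library, 4 libraries per group and a bar at their mean. Pml, Daxx, Nmi and Ifi35 are raised at both times, Sp100 and Sp110 only in the IFN-β libraries of 14 h, and the treated means of Daxx are 84.6 CPM at 2 h and 96.4 CPM at 14 h.

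At 14 h the 5 members that entered the test were all called higher in footprints, where 26.2% of the 12113 genes tested were called higher and 26.3% lower. Their median log2 fold change was 3.76, with that of all genes at 0.00. Sp100 and Ifi35 reached the count filter through the treated libraries alone, as Ifi35 nearly did at 2 h, so that their place among the genes tested and called was set in part by the filter. The groups of all 6 members did not overlap in CPM, whereas 23.4% of all genes tested had every treated library above every vehicle library. Sp110 is not among the genes of that share, since it fell short of the count filter. For the difference between the times, with Sp100 set aside, 4 members were tested and Pml, Nmi and Ifi35 were called higher at 14 h, as were 15.4% of 12508 genes (28.0% with the replicate block).

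Levels can be set side by side between genes only per length. Per kilobase of coding sequence, the vehicle footprint level at 14 h was highest for Daxx (14.3 ± 0.8 CPM per kb, SD, n = 4) and Pml (13.4 ± 1.2), which overlapped, followed by Nmi (9.70 ± 1.44), whose range lay below both. Ifi35 was far lower at 0.48 ± 0.18 CPM per kb, and Sp110 and Sp100 were at or near 0. After 14 h of IFN-β the order was another. Ifi35 came first with 179.8 ± 21.2 CPM per kb, then Nmi with 130.8 ± 8.3 and Pml with 74.1 ± 1.5, and these 3 ranges did not overlap. Daxx (43.4 ± 3.0 CPM per kb) and Sp100 (34.4 ± 5.5) were neighbours, with the lowest Daxx library at 40.4 and the highest Sp100 library at 40.0. Lengths were those of the coding sequence merged over all transcripts of a gene. For Sp100 this is 2265 bases, whereas its longest single coding sequence has 1773, and for Daxx both are 2220. The order of Daxx and Sp100 thus turns on the length used and is not settled. Sp110 was last at 1.13 ± 0.46. After 2 h of IFN-β Daxx (38.1 ± 6.5), Pml (35.4 ± 3.5) and Nmi (32.5 ± 7.3) overlapped, and Ifi35 (12.6 ± 3.8) stood below them.

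Likeness across the 16 footprint libraries was described by the Pearson correlation of log2 of CPM plus 0.5 over 10309 genes whose mean reached 50 counts. The libraries fall into treated and untreated sets, which raises r between genes that change with IFN-β, and no test was made. Pml was most like Slfn8 (r = 0.997), Apol9b and Oas1b. Daxx was most like Ifit2 (r = 0.990), Stat2 and Cmpk2. Nmi was most like Dhx58 (r = 0.994), Ankfy1 and Lgals9, and Ifi35 most like Psme2b (r = 0.997), Herc6 and H2-Q4. Sp100 stood with Ly6e (r = 0.996), Ly6a and Ly6c1, and Sp110 with Pttg1 (r = 0.970), Oas1g and Ly6e. Both had 0 or 1 footprint in every library but the treated ones of 14 h. Their r thus mostly reflects those treated libraries against the rest. Among the members the closest pair was Nmi and Ifi35 (r = 0.992) and the least alike Sp100 and Daxx (r = 0.675).

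Total RNA of the same lysates was far sparser. Pml had 0, 9, 3 and 9 counts with vehicle and 12, 10, 8 and 6 with IFN-β at 2 h, and 3, 0, 2 and 1 against 5, 8, 3 and 8 at 14 h. Sp100 had 1, 6, 3 and 9 counts against 4, 5, 11 and 5 at 2 h, and 2, 2, 2 and 4 against 2, 7, 2 and 3 at 14 h. Sp110 had at most 1 count in any library. None of these 3 genes reached the count filter, and without a filter they were tested and not called at either time. In CPM the ranges of Pml and Sp100 overlapped between the groups at both times.

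Of the 3 members tested in total RNA at 2 h (Daxx, Nmi and Ifi35) edgeR called 0, where 0.722% of 11639 genes were called higher. All 3 had a positive log2 fold change, and the unadjusted p was under 0.05 for Daxx (0.00328) and Nmi (7.33e-04). In CPM every treated library was above every vehicle library for Nmi and Daxx, as for 2.58% of all genes tested. Nmi had 9, 4, 1 and 3 counts with vehicle and 41, 25, 14 and 17 with IFN-β, which do not overlap. Nmi entered the test through the treated libraries alone. Its log2 fold change was 2.29 (SE 0.51, adjusted p = 0.0782 in edgeR), and it was called with DESeq2 (adjusted p = 0.00588), with no scaling beyond total counts, with no filter on low counts, and without vehicle replicate 2. Daxx had 13, 13, 15 and 17 counts in vehicle libraries and 54, 29, 32 and 35 in treated ones, which changed it by 1.18 on the log2 scale (SE 0.32, adjusted p = 0.194). Ifi35 had 11, 13, 4 and 15 against 25, 22, 17 and 10, which overlap, with 0.63 (SE 0.33, adjusted p = 0.808).

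At 14 h Nmi was the 1 member of 3 that was called in total RNA, with 3.47% of 7520 genes called higher. Its counts were 3, 1, 1 and 1 with vehicle and 11, 11, 14 and 10 with IFN-β. As at 2 h, Nmi entered the test through the treated libraries alone, so that its place among the genes tested was set by the group where it is high. Nmi rose by 2.41 on the log2 scale (SE 0.45, adjusted p = 0.00295 in edgeR). Ifi35 had 13, 8, 4 and 2 counts in vehicle libraries and 30, 23, 20 and 15 in treated ones. It changed by 1.22 on the log2 scale (SE 0.40, adjusted p = 0.0969 in edgeR) and was called only when the filter on low counts was dropped. Daxx had 15, 9, 1 and 6 counts against 8, 13, 16 and 18, which overlap, with 0.42 (SE 0.41, adjusted p = 0.634).

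**Figure D2:**
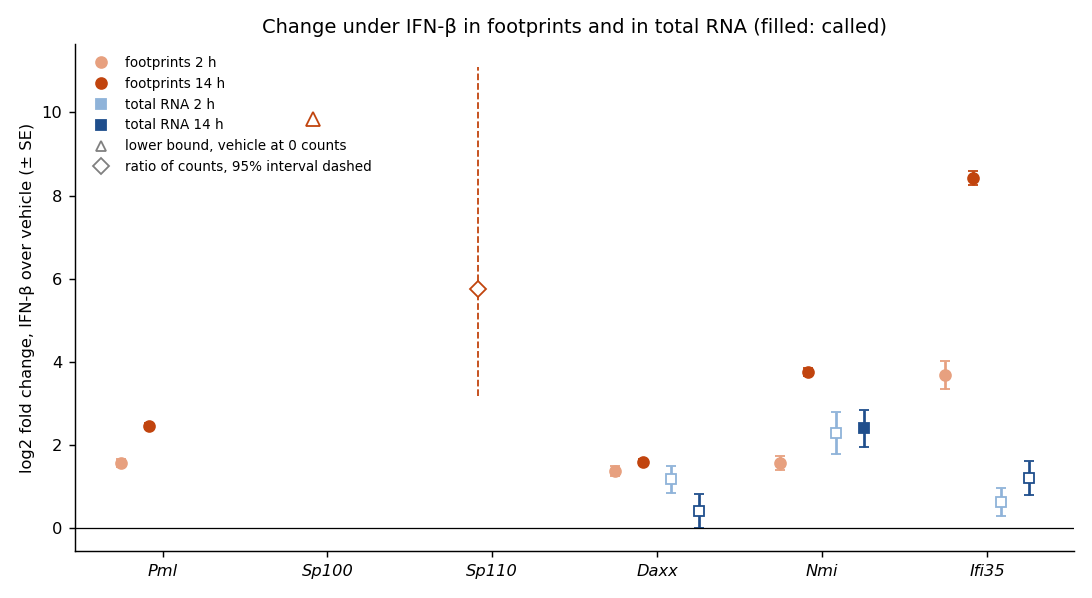
Log2 fold change of IFN-β over vehicle with its standard error, for footprints (circles) and total RNA (squares) at 2 h and 14 h, with called values filled. The triangle is the lower bound for Sp100, whose vehicle libraries held 0 footprints, and the diamond with its dashed line is the ratio of summed Sp110 counts with a 95% counting interval. Footprints of Ifi35 changed by 8.41 at 14 h and its total RNA by 1.22.

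Translation efficiency (TE) is the change of footprints beyond that of total RNA, tested as an interaction in edgeR and called at an adjusted p under 0.1. At 2 h 4 members were tested and Ifi35 was called higher (log2 change 3.10, SE 0.46, adjusted p = 9.83e-04), as were 0.581% of 14115 genes. The values of Pml (0.98), Daxx (0.24) and Nmi (-0.69) did not pass. At 14 h Sp100, Daxx and Ifi35 were called higher of 5 members tested, as were 4.49% of 13447 genes (2.98% with each culture as a block). Sp100 reached the count filter through its treated footprint libraries alone, and Ifi35 through treated libraries but for vehicle replicate 1 of total RNA. The place of both among the genes tested and called was thus set in part by the group where they are high. Ifi35 had a change of 7.09 (SE 0.59, adjusted p = 1.35e-08) and Daxx of 1.17 (SE 0.37, adjusted p = 0.0617). For Sp100 the call (adjusted p = 1.50e-06) sets 0 against 185 or more footprints beside 2 to 7 counts of total RNA in every library of 14 h, and its fitted size is not given because the vehicle footprints were 0. Pml (0.89, SE 0.72) and Nmi (1.26, SE 0.61) did not pass, at adjusted p of 0.581 and 0.346. The call on Daxx was lost with the culture block (log2 change 1.11, adjusted p = 0.160), and without vehicle replicate 1 or 2 or IFN-β replicate 1, 2 or 3 (0.84 to 1.20).

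The total RNA kit kept strand, and the strand setting of the counting is not given in the sources used here. Whether total RNA reads were counted on the strand of their gene or on the other was not tested, and this bears on every total RNA and TE value given, those of Nmi and Daxx included. Ifi35, Sp100, Sp110 and Pml have a gene annotated on the other strand. Gm11626, an antisense gene lying within Ifi35 (101456576 to 101457390, minus strand), shares 290 bp of exon with it. In total RNA Gm11626 had 7, 4, 2 and 5 counts with vehicle and 182, 118, 134 and 82 in treated libraries at 2 h, and it rose by 4.63 on the log2 scale (SE 0.34, adjusted p = 3.65e-05 in edgeR), having entered the test at both times through the treated libraries alone. At 14 h it had 1, 0, 1 and 1 counts with vehicle and 899, 958, 860 and 555 with IFN-β. Thus every treated library held more total RNA counts on the antisense gene than on Ifi35 itself, which had 15 to 30 at 14 h. The ratio of the summed counts of Gm11626 at 14 h was 817, with a 95% counting interval of 279 to 3961.

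The other opposite-strand genes held more total RNA counts with IFN-β in part of the comparisons, and none was called. Only Mir6385 at 2 h reached the count filter, through its treated libraries alone. Mir6385, a miRNA gene of 105 bp that lies wholly in an exon of Pml, had 8, 6, 1 and 0 counts with vehicle and 34, 22, 23 and 18 with IFN-β at 2 h, more than Pml itself in each treated library (log2 fold change 2.48, SE 0.60, adjusted p = 0.117 in edgeR). At 14 h it had 3, 2, 0 and 1 against 9, 4, 16 and 3. Gm17017, which overlaps the start of Sp100 by 598 bp without sharing exons, had 0 counts in every vehicle library of 14 h and 3, 4, 5 and 5 in the treated ones, which is at least 4.24-fold more than the floor. G530012D18Rik, which shares 392 bp of exon with Sp110, had 8, 2, 1 and 2 counts with vehicle and 9, 14, 29 and 14 with IFN-β at 14 h, where Sp110 had 0 or 1. At 2 h Gm17017 and G530012D18Rik had 0 to 2 counts per library with vehicle and with IFN-β. No gene is annotated on the other strand of Daxx or Nmi.

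Vat1, on the minus strand directly after the end of Ifi35, was looked at after its values had been seen. In total RNA it had 3, 1, 0 and 7 counts with vehicle and 243, 222, 275 and 151 with IFN-β at 14 h (log2 fold change 5.85, SE 0.36, adjusted p = 1.33e-08 in edgeR), and it too entered through the treated libraries alone. Its footprints at 14 h were 231, 540, 436 and 613 with vehicle and 191, 435, 402 and 648 in treated libraries, which was higher by 0.28 on the log2 scale after scaling (SE 0.09, adjusted p = 0.0187). How many reads of Ifi35 were counted on Gm11626 or Vat1 was not tested, and from these tables transcripts of the strands cannot be told apart.

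**Figure D3:**
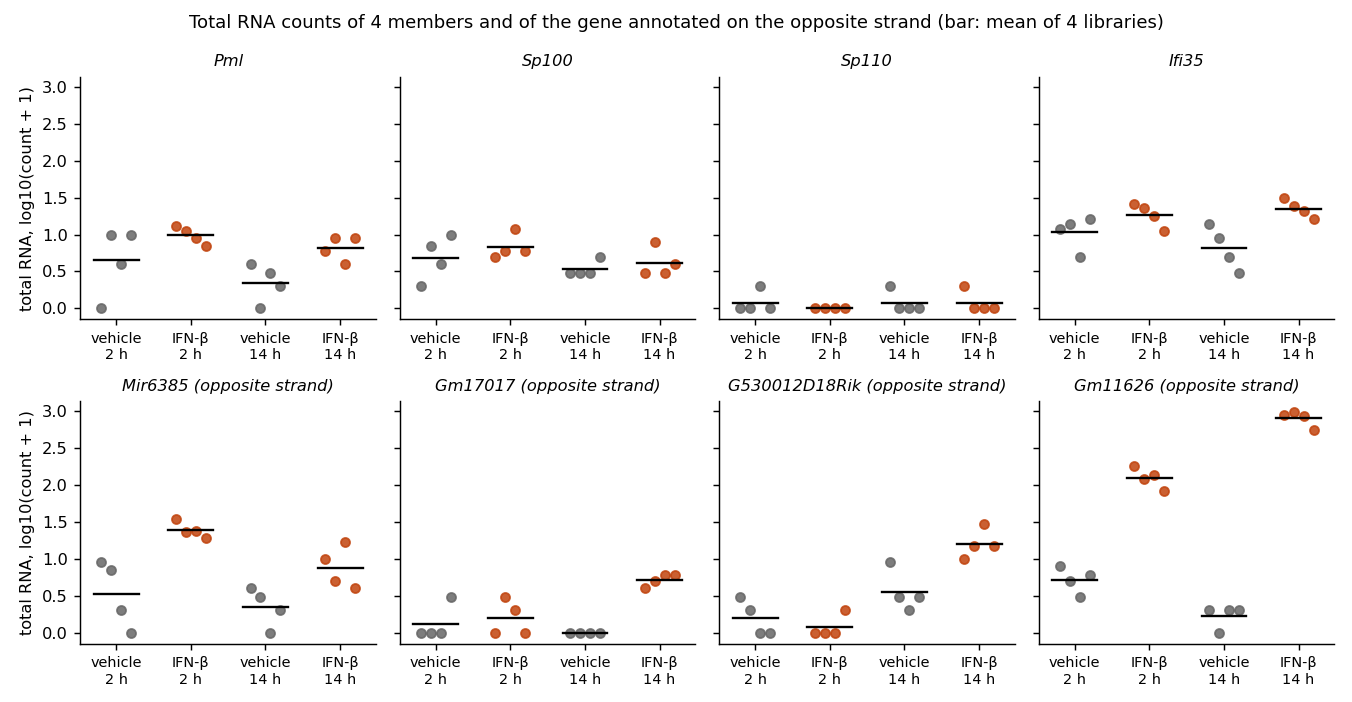
Total RNA counts, as log10 of the count plus 1, of Pml, Sp100, Sp110 and Ifi35 (top) and of the gene annotated on the opposite strand of each (bottom), with 1 point per library and a bar at the mean of 4. Gm11626 reaches 555 to 958 counts with IFN-β at 14 h, while Ifi35 has 15 to 30.

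Genes known to work with the members were followed in footprints too. The SUMO cycle was followed with 18 genes, all tested at both times. At 14 h 1 of the 18 was called higher, where 26.2% of all genes were, and 5 were called lower, where 26.3% were. Their median log2 fold change was -0.04. Sumo3 was the 1 higher (0.35, SE 0.10), and the lowest were Sumo2 (-0.61, SE 0.18) and Senp1, a protease that removes SUMO (-0.60, SE 0.09). The remaining 12 genes did not pass. At 2 h, where 5.25% of all genes were called higher and 2.01% lower, 1 gene was called higher (Senp2, 0.37, SE 0.09) and 1 lower (Pias3, -0.42, SE 0.10), both named after their values had been seen.

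Of 21 residents of PML bodies and histone chaperones, all tested at both times, 5 were called higher and 8 lower at 14 h (26.2% and 26.3% of all genes), with a median of -0.09. Isg20, an interferon-induced exonuclease, rose by 5.78 (SE 0.24, adjusted p = 4.97e-10 in edgeR) and Morc3, an ATPase found in the bodies, by 0.90 (SE 0.06, adjusted p = 3.28e-08). The largest decreases were those of Blm, a DNA helicase (-1.50, SE 0.09), and Nbn, a DNA repair protein (-0.59, SE 0.06). At 2 h 3 of the 21 were called higher and 0 lower (5.25% and 2.01% of all genes).

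Of 10 binding partners of Nmi and Ifi35, 8 were tested at 14 h, with 3 called higher, 2 lower (26.2% and 26.3% of all genes) and a median of 0.16. Trim21, a ubiquitin ligase, rose by 3.74 (SE 0.13, adjusted p = 5.69e-11 in edgeR) and Stat6, a transcription factor of interleukin-4 signalling, by 1.11 (SE 0.19, adjusted p = 3.79e-04). Brca1 (-1.82, SE 0.11) and Myc (-0.52, SE 0.05) fell. At 2 h 2 of 7 tested were called higher and 0 lower, where 5.25% and 2.01% of all genes were. Of the 8 genes in the list of the Sp100 family and its copies on chromosome 1, A530040E14Rik, Gm2666, Gm7609 and Gm7592 were not counted in footprints. None of the rest reached the count filter there. In total RNA at 14 h 2 of the 8 were tested, of which 0 were called.

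**Figure D4:**
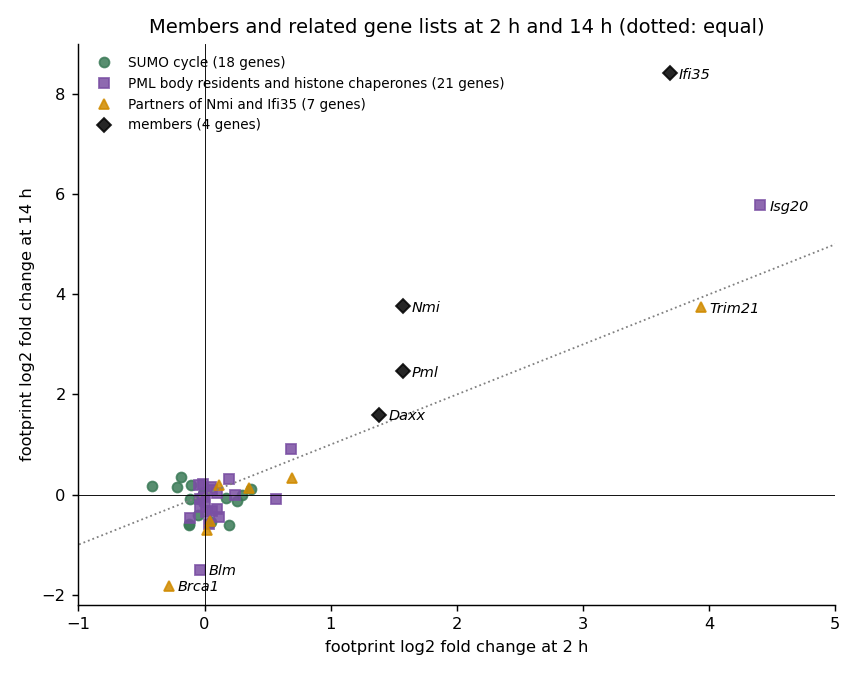
Footprint log2 fold changes at 2 h (x axis) and 14 h (y axis) of the members and 3 related lists, for genes tested at both times, with 1 point per gene and names where the 14 h change exceeds 1 in size. Ifi35, Nmi and Pml lie above the dotted line of equal change, Daxx near it, and most list genes around 0.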

How the data were processed

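The deposited values are raw counts per gene, whole numbers, in tables of footprints in the coding sequence and of total RNA in the gene body. Per the paper and labels, the authors trimmed reads (Trim Galore 0.4.4), mapped them to the mm10 transcriptome (Bowtie 0.12.7), removed duplicates and counted with SummarizeOverlaps in Union mode. Footprints were made with a SMARTer smRNA kit and total RNA with a directional kit. Removal of duplicates can lower counts of short, highly occupied coding sequences.

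Counts were tested in R 4.3.3 with edgeR 4.0.16 (quasi-likelihood, TMM scaling, two-sided, Benjamini-Hochberg over all genes tested), with DESeq2 1.42.0 as an alternative. CPM use TMM-scaled library sizes over the 16 libraries of a kind. Differences between times and TE were interaction terms, TE being called under 0.1 as in the methods. Scripts were tested on simulated counts, where 2-fold changes were recovered in 76.6% of cases in footprints at 2 h and 93.3% at 14 h. The shares were 11.1% and 35.7% in total RNA, and 12% and 20.4% in TE. False calls made up 14.5% of the simulated TE calls at 2 h and 9.46% at 14 h. A total RNA or TE change that did not pass can thus be a change missed. The simulation changed only a small set of genes, in both directions, with the dispersion taken from the trend over all genes. In the real data 52.5% of genes were called in footprints at 14 h, so the simulated shares need not hold there or for single members. Python 3.11.15 with pandas 2.3.3 gave the remaining values.

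Alternatives were 2 other scalings, DESeq2, 2 other count filters, a block, and leaving out each library (for TE each culture) with the genes tested kept. The block was the replicate number in footprints and total RNA. For TE it was the culture, which ties the footprint and total RNA libraries of a lysate and pairs no treated culture with a vehicle culture. The samples' numbers pair footprints. Deviations from the group means of same-numbered footprint libraries correlated at 0.33 to 0.81 at 2 h and 0.19 to 0.42 at 14 h, and those of total RNA libraries at -0.48 to 0.39. The members and lists were chosen with earlier results of these data known. All members are named, and of each list the 2 called genes that rose most and the 2 that fell most in footprints at 14 h. A gene of the list of partners of Nmi and Ifi35 is not reported here, and the counts of that list leave it out. P-values measure the spread between these cultures.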

Additional observations from a re-analysis of the deposited data

Results flagged for a closer look

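The IFN-β effect on footprints differed between 14 h and 2 h by an interaction test in edgeR for Pml (0.90 on the log2 scale), Nmi (2.20) and Ifi35 (4.73), each larger at 14 h. The cultures of the times are separate, and each time was set against its own vehicle cultures.

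In 7 of 45 groups of 4 libraries in which a member had a count, 1 library stood apart from the other 3 by Dixon's test of the gap as a share of the range. Chance flags about 1 in 20 such groups. For Nmi footprints with vehicle at 2 h the gap was 0.96 of the range, set by the library of replicate 6 (62 footprints). For Ifi35 footprints with vehicle at 14 h it was 0.925, set by replicate 1 (1 footprint, against 4 or 5). The other 5 groups are all of Sp110, where a single library had 1 count and the rest 0, so that the gap equals the whole range (1). They are the footprints of both vehicle groups and total RNA of both vehicle groups and of IFN-β at 14 h.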

How the results depend on the processing

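The calls of members in footprints at 2 h, at 14 h and between the times stayed within 1.5 times the reported counts under all alternatives run. Leaving out 1 library gave 4 at 2 h, 5 at 14 h and 3 between the times. In total RNA at 2 h the count of 0 became 1 (Nmi) with total counts alone, with DESeq2 and with no filter on low counts, and was 0 to 1 when a library was left out. In total RNA at 14 h it became 2 with no filter and 0 where a mean of 50 counts was asked for, which no member reached, and stayed at 1 without each library. TE calls became 0 at both times with that mean, again with no member tested, and were 1 at 2 h and 2 to 3 at 14 h when a culture was left out. The TE change of Daxx at 2 h turned to -0.20 with total counts alone, a scaling that moves the medians over all genes at 2 h to -0.38 for TE and 0.23 for total RNA, and it was not called in either case. With the culture as a block, the TE change of Daxx at 14 h was 1.11 and its call was lost. No other call on a member changed with a block, which was the replicate number (paired analysis) in footprints and total RNA. Over all genes the replicate block moved the calls in footprints at 2 h from 878 to 3538 and those between the times from 3867 to 6944. The culture block moved those in TE at 14 h from 1136 to 744. Over the other alternatives that keep every library, calls among all genes ranged from 44 to 174 in total RNA at 2 h (93 reported), 247 to 694 at 14 h (474), 27 to 259 in TE at 2 h (115) and 380 to 1482 at 14 h (1136). Without 1 library, they moved by over 1.5 times in total RNA at 2 h without vehicle replicate 5 (57) or IFN-β replicate 2 (61), in total RNA at 14 h without IFN-β replicate 1 (279), and in TE at 2 h without replicate 5 of vehicle (73) or of IFN-β (75). In total RNA Pml, Sp100 and Sp110 had too few counts for the filter, and with none they were tested and not called.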
